A study of Mus musculus with 20 samples.

Results

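Nuclear genes of the oxidative phosphorylation system were examined in the epididymal white adipose tissue (eWAT) of mice. The 42 genes were named one by one by symbol, and all 42 were found among the 55401 genes of the deposited count table and passed the filter on low counts. They comprise 15 genes of complex I, 4 of complex II, 6 of complex III, the cytochrome c gene Cycs, 8 of complex IV (Ndufa4 among them) and 8 of complex V. The series holds 20 polyA RNA-seq libraries, 10 from mice on a control diet and 10 from mice on random food restriction, a regime that joins intermittent fasting to 5% calorie restriction. Libraries are called Control 1 to 10 and Restricted 1 to 10. Each also carries a Yes or No label for contamination with spermatocytes, which was Yes in 7 control and 3 restricted libraries. Strain, sex, age, genotype and the length of the regime were not given in the sources used here.

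Oxidative phosphorylation couples the oxidation of NADH and succinate to the making of ATP in the inner mitochondrial membrane. Complexes I and II pass electrons to ubiquinone, complex III passes them on to cytochrome c, complex IV hands them to oxygen, and complex V uses the resulting proton gradient to make ATP. Most subunits are encoded in the nucleus and a few in mitochondrial DNA, so each complex except complex II draws on both genomes. White adipocytes hold few mitochondria beside brown adipocytes or skeletal muscle fibres, which are rich in these transcripts.

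Promoter windows of the 4 genes with the smallest p for diet (Atp5j, Uqcrfs1, Uqcrh and Sdhd) are shown. Of these, Atp5j and Uqcrfs1 passed the adjusted threshold in the fit below, and Uqcrh and Sdhd did not. Each window runs from 250 bases before to 50 bases after a RefSeq start site in build GRCm38.p6, and all lie on the minus strand and are written 5′ to 3′ along the gene. Capitals mark exact matches, on either strand, to 6 sets of letters: NRF1 (GCGCANGCG), the GABP site of ETS factors (CCGGAAGT), the oestrogen-related receptors ERR (TCAAGGTCA), the cyclic AMP response element CRE (TGACGTCA), YY1 (AAGATGGC) and the TATA box (TATAAA).
Atp5j, first RefSeq start, chr16:84835576-84835875: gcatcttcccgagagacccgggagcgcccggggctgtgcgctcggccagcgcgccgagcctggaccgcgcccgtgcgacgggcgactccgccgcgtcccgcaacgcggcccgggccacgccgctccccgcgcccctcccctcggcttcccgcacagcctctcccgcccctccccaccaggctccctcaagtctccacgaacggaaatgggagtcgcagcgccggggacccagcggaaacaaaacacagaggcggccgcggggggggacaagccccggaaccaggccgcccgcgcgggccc
Atp5j, second RefSeq start, chr16:84834927-84835226: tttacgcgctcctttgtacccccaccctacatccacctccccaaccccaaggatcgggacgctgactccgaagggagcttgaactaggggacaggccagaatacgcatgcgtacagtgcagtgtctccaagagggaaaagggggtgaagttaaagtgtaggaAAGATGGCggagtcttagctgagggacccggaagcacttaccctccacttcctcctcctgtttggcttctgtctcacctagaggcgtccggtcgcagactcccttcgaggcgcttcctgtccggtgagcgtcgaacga
Uqcrfs1, chr13:30545267-30545566: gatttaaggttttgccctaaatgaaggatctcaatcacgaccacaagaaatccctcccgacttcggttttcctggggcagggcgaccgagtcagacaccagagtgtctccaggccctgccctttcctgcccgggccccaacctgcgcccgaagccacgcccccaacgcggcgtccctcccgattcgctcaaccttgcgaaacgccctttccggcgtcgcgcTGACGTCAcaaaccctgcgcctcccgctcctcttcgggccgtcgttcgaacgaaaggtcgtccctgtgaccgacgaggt
Uqcrh, chr4:116075021-116075320: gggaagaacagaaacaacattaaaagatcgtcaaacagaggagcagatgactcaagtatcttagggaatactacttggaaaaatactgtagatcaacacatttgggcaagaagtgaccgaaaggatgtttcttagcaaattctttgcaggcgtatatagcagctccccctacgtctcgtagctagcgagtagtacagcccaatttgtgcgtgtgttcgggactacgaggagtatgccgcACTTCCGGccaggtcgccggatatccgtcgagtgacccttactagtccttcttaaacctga
Sdhd, chr9:50603800-50604099: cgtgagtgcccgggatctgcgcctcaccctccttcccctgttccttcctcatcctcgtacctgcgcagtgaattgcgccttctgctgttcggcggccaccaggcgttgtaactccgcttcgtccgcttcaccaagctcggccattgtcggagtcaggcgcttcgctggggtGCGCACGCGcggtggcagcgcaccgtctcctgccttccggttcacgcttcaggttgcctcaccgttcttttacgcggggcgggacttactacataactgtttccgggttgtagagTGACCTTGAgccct

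The first Atp5j window held none of the 6 sets of letters, and the second held YY1 at position -88 from the start. Uqcrfs1 held the CRE letters at -29. Uqcrh held the GABP letters at -11 on the reverse strand. Sdhd held NRF1 at -79 and, on the reverse strand, ERR at 36 bases past the start. In the deposited coordinates (GRCm38, minus strand, exons and introns), Uqcrfs1 spans chr13:30540308-30545362, Uqcrh chr4:116066965-116075031 and Sdhd chr9:50596357-50603812. Windows were found for 33 of the 42 genes. The NRF1 letters occurred in 10 of these 33 genes (30.3%), against 7.0% of all genes with a window and 13.9% of tested genes with one. The other letters occurred in few of the 33 genes. GABP was in 4 (12.1%, against 8.3% of tested genes), ERR in 2 (6.1% against 0.3%) and CRE in 3 (9.1% against 3.3%). YY1 was in 4 (12.1% against 4.8%) and the TATA box in 1 (3.0% against 9.3%), and none of these shares was tested. A match is a run of letters and not a measured binding site.

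Total counts ran from 14306528 to 44061508 per library, and the 42 genes took 1.08% ± 0.0328 of them under the control diet and 1.09% ± 0.0945 under restriction (SD, n = 10 each). The adipocyte markers were high in every library, with summed levels of 16104 to 25188 counts scaled to a library total of 1000000 (CPM). The extraction text names QUAD where the tissue label says eWAT. Control 1 to 5 and Restricted 1 also held skeletal muscle transcripts, with 949 to 2130 CPM in those controls and 4055 CPM in Restricted 1 over 14 muscle markers, against 31.2 to 139 CPM in the other 14 libraries. Summed germ cell markers ranged over 2.76 to 35.4 CPM in control and 3.43 to 105 CPM in restricted libraries, with Restricted 2 the highest. These sums overlapped between the contamination labels, at 4.38 to 105 CPM in libraries marked Yes and 2.76 to 35.4 CPM in those marked No. Control 6, with a sum of 35.4 CPM, was marked No. Of the 2 tested markers of this list, Spata18 followed the label, at 1.53 to 9.35 CPM in libraries marked Yes and 0 to 0.772 CPM in those marked No. The other, Sycp3, was higher under restriction, at 2.88 to 12.6 CPM against 1.31 to 2.88 CPM in control libraries, and it adds to the sums. Summed epididymis markers were at 321 CPM in Control 1, which had the lowest median level of the 42 genes, and at 71.7 CPM in Control 6, against at most 8.20 CPM in the other libraries. Their part in the level of the 42 genes was not tested. Summed macrophage markers ranged over 964 to 1283 CPM in control and 657 to 1067 CPM in restricted libraries, and progenitor markers over 1666 to 2295 and 1162 to 1685 CPM. In bulk tissue, a change in the share of a cell type and a change in RNA per cell cannot be told apart.

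Differences between the diets were small for these genes, and almost all lay in one direction. The log2 fold change, restricted over control with the contamination label as a term, was above 0 for 41 of 42 genes (51.9% of all 15986 tested genes), with a median of 0.15, a 1.11-fold difference. Across all tested genes the median was 0.0088. By edgeR's quasi-likelihood test with Benjamini-Hochberg adjustment over all tested genes, 2 of the 42 genes passed an adjusted p of 0.05 as higher in restricted libraries, namely Atp5j, coupling factor 6 of ATP synthase, and Uqcrfs1, the Rieske iron-sulfur protein of complex III. Across all tested genes 6.31% passed as higher and 7.29% as lower, so the share of the 42 (4.76%) lay near the background. None of the 42 genes passed as lower. At an unadjusted p under 0.05 there were 14 of the 42 genes, against 28.3% of all tested genes. For no gene did the 10 restricted libraries all lie above or all below the 10 control libraries, as they did in 0.363% and 0.588% of tested genes.

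Without Restricted 1, none of the 42 genes passed in either direction (4.82% of genes passed as higher and 6.23% as lower). The median log2 fold change was then 0.077, a 1.05-fold difference, with 32 genes above 0 (51.4% of all genes) and 3 genes, Atp5j, Uqcrfs1 and Uqcrh, at an unadjusted p under 0.05 (26.3% of all genes). In the 14 libraries without marked muscle transcripts no gene of the 42 passed (2.39% of genes higher, 3.19% lower). There the median log2 fold change was 0.056, and 30 genes lay above 0 (52.9% of all genes). Left out singly, Control 6 removed Atp5j and brought in Cox5a, and Restricted 8 removed Uqcrfs1 and brought in Sdhd. Both calls also ended when Control 1, Control 2, Control 3, Control 7 or Restricted 10 was left out. One call remained, Atp5j without Control 10 or Restricted 9 and Uqcrfs1 without Control 8, whereas 4 genes passed without Restricted 3 (5.59% of all genes higher) and 9 without Restricted 2 (6.45%). Over the 20 fits that each left out 1 library, 4.08% to 6.66% of all tested genes passed as higher.

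The levels of the 42 genes moved together between libraries. Set against each gene's own median over the 20 libraries, Restricted 1 was above it for 42 of 42 genes, with a median deviation of 0.47 on the log2 scale. Restricted 10 was also above it for 42 of 42, with a median deviation of 0.39. Restricted 5 came next, above for 38 genes with a median of 0.16.

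The other 7 restricted libraries had medians between -0.12 (Restricted 7, above for 3 genes) and 0.013. The 10 control libraries lay between -0.15 (Control 1) and 0.066 (Control 4). The medians of these 7 libraries lay within the control range, and those of Restricted 1, Restricted 10 and Restricted 5 lay above it. Restricted 1 was the highest of the 20 libraries for 30 of the 42 genes (12.9% of all tested genes), Restricted 10 for 11 (7.58%) and Restricted 9 for the remaining gene, Cox8a. Restricted 1 and Restricted 10 together held the top 2 places for 32 of the 42 genes, against 7.12% of tested genes.

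**Figure D1:**
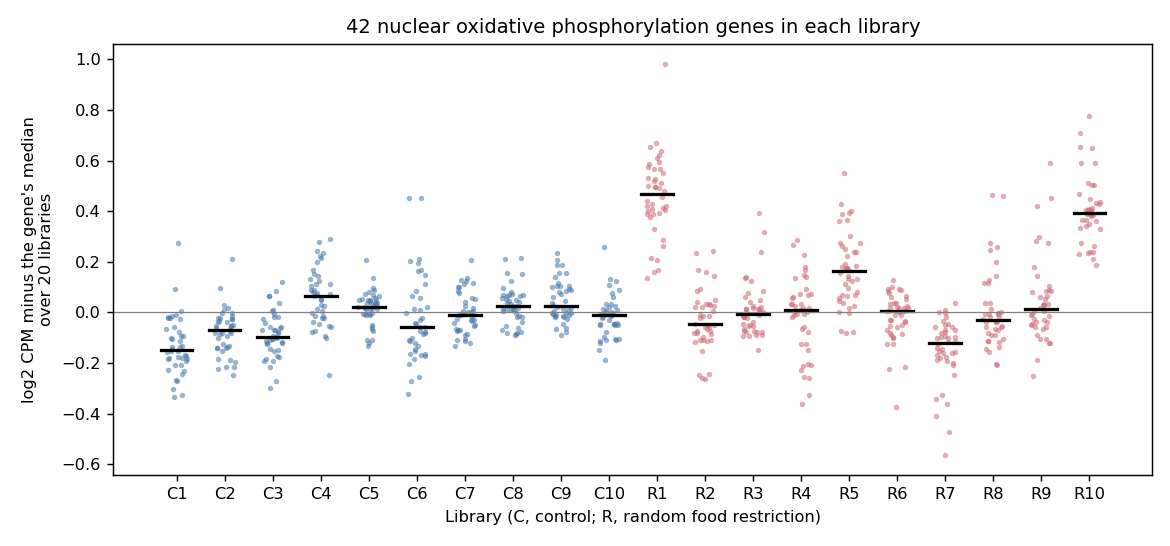
Each point is 1 of the 42 genes in 1 library, as log2 CPM minus the gene's median over the 20 libraries (vertical axis); libraries are on the horizontal axis, control in blue and random food restriction in red, and bars are medians. Restricted 1 (median 0.47) and Restricted 10 (0.39) have all 42 genes above 0, whereas the other libraries have medians between -0.15 and 0.16.

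The SD of the CPM was larger in restricted than in control libraries for 42 of 42 genes, and for 41 of 42 with Restricted 1 left out. Restricted 10, which lay above the gene's own median for 42 of 42 genes, was kept in these counts. Whether the wider spread holds without Restricted 10 was not tested. The share of all tested genes with a larger SD in restricted libraries was not computed. The median coefficient of variation was 7.53% in control libraries, 16.3% in restricted libraries and 12.6% in the 9 restricted libraries without Restricted 1. As a description, over deviations from the diet means the 861 pairs of genes had a median Pearson r of 0.71, and 847 pairs were positive. The median was 0.68 for the 182 pairs within a complex and 0.71 for the 679 pairs between complexes, and the points of each pair share library and scaling. Without Restricted 1 the median over all pairs was 0.63.

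The muscle index, the mean log2 CPM of the 14 muscle markers, was 6.49 in Restricted 1 and 1.51 in Restricted 10, and -0.673 to 0.467 in the 13 other libraries outside Control 1 to 5. Control 1 to 5 had muscle indices of 4.72 to 6.46, and median deviations of -0.15 to 0.066 for the 42 genes. The part of the muscle transcripts in the level of Restricted 1 was not tested.

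Summed CPM of the 6 brown adipocyte markers was highest in Restricted 10 (43.3), Restricted 1 (34.8) and Restricted 5 (29.4), the same 3 libraries that led for the 42 genes. Cidea, a lipid droplet protein of brown fat named after its values were seen, gave most of this, at 29.1 CPM in Restricted 10, 17.8 in Restricted 1 and 15.6 in Restricted 5, against 1.75 to 5.23 CPM in control libraries. Prdm16 and Ppargc1a, regulators of brown fat genes and the other tested markers of this list, did not follow. In Restricted 10, Restricted 1 and Restricted 5, Prdm16 measured 6.55, 7.56 and 5.49 CPM, against 5.92 to 9.82 CPM in control libraries. Ppargc1a measured 6.87, 7.44 and 7.68 CPM, against 7.31 to 13.4 CPM. Ucp1, the defining uncoupling protein of brown fat, was at most 0.124 CPM in any library. Summed adipocyte markers were also highest in Restricted 10 (25188 CPM) and Restricted 5 (23687 CPM), and their part in the pattern was not tested.

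**Figure D2:**
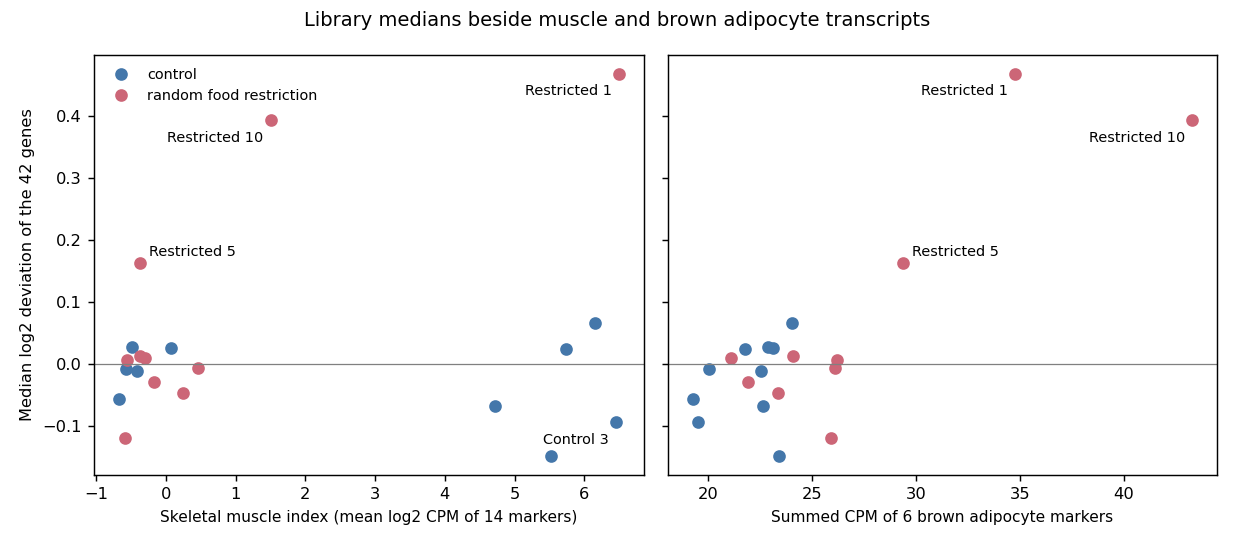
Each point is a library (blue, control; red, random food restriction), with the median log2 deviation of the 42 genes on the vertical axis against the skeletal muscle index (left) and the summed CPM of 6 brown adipocyte markers (right). Control 1 to 5 have muscle indices of 4.72 or more, as has Restricted 1, and medians of at most 0.066. Their summed muscle markers reach 2130 CPM, against 4055 CPM in Restricted 1, and the part of muscle transcripts was not tested. The 3 libraries highest on the right axis are Restricted 10, 1 and 5, where Cidea gives most of the sum.

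By level per length of the gene's merged exons, the most abundant transcripts were Cox8a, a small subunit of complex IV, at 592 ± 120 CPM per kilobase and Atp5b, the catalytic beta subunit of ATP synthase, at 465.5 ± 56.7 (SD, n = 20). Next came Cox6a1 at 426 ± 73.6 and Cox4i1 at 412 ± 57.9 CPM per kilobase. The SDs of neighbours in this order overlapped. The genes were measured in the same libraries, and differences between them were not tested. Atp5a1, the alpha subunit of ATP synthase, followed at 348 ± 44.1. At the other end were Atp5g1, 1 of the genes for the ring-forming c subunit, at 8.27 ± 1.09 CPM per kilobase, and Ndufb5 at 13.7 ± 1.96. Long merged gene models lower such values.

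Complex I takes electrons from NADH, and its 15 genes had log2 fold changes of 0.071 to 0.28 with a median of 0.13; none passed the adjusted threshold. Ndufa9, an accessory subunit near the ubiquinone site, measured 125, 134 and 149 CPM (lowest, median and highest) in control and 131, 141 and 195 CPM in restricted libraries. The 3 restricted libraries above the highest control included Restricted 1 and Restricted 10 on top, and the rest overlapped. On the log2 scale the difference was 0.18 ± 0.071 (SE), with an adjusted p of 0.0979 by edgeR's quasi-likelihood test.

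Ndufb5, an accessory subunit of the membrane arm, measured 59.8, 62.9 and 75.9 CPM in control and 61.2, 68.6 and 96.8 CPM in restricted libraries. Restricted 1 was highest, and 4 restricted libraries exceeded all controls. Its log2 fold change of 0.20 ± 0.083 (SE) had an adjusted p of 0.108 by edgeR, and its counts are uncertain because Mrpl47, a gene that overlaps it, had 18.4% as many counts.

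Ndufa1, a small X-linked subunit needed for assembly of the membrane arm, measured 52.7, 61.7 and 77.4 CPM in control and 60.7, 76.2 and 112.7 CPM in restricted libraries. Restricted 10 and Restricted 5 were highest here, and 9 of 10 restricted libraries exceeded the control median. Its log2 fold change, 0.28 ± 0.11 (SE), was the largest of complex I, at an adjusted p of 0.111 by edgeR, and it was 0.23 without Restricted 1.

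Ndufs8, a core subunit that carries iron-sulfur clusters, measured 62.2, 76.6 and 83.2 CPM in control and 61.4, 69.1 and 112.7 CPM in restricted libraries. Only 3 restricted libraries exceeded the control median, and the same 3 exceeded every control. The log2 difference was 0.085 ± 0.099 (SE, edgeR adjusted p of 0.621) and -0.036 without Restricted 1.

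A division of complex I into core and accessory subunits, made after the values were seen, gave a median log2 fold change of 0.10 for the 6 core genes (Ndufs1, Ndufs3, Ndufs7, Ndufs8, Ndufv1 and Ndufv2, at 0.071 to 0.13) and 0.18 for the 9 accessory genes (0.097 to 0.28). Without Restricted 1 the medians were 0.017 and 0.083, with 3 of 6 core genes and 9 of 9 accessory genes above 0. The difference between the 2 sets was not tested. Kbtbd4, a gene overlapping the core gene Ndufs3, had 9.76% as many counts as Ndufs3.

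Complex II oxidises succinate and is encoded wholly in the nucleus. Its 4 genes had log2 fold changes of 0.12 to 0.21 (median 0.14), and none passed. Sdhd, a membrane anchor, measured 143.6, 156 and 172 CPM in control and 157, 166 and 233 CPM in restricted libraries. All 10 restricted libraries exceeded the control median, and 3 exceeded all controls, with Restricted 1 and Restricted 10 (221 CPM) well above the rest. Sdhd had a log2 fold change of 0.21 ± 0.074 (SE) at an adjusted p of 0.0583 by edgeR, and 0.13 without Restricted 1 (adjusted p of 0.233).

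Sdhc, the other anchor, measured 159, 185 and 199 CPM in control and 178, 185 and 255 CPM in restricted libraries, with equal medians to the digits given. Sdhb, the iron-sulfur subunit, measured 176, 192 and 205 CPM in control and 176, 194 and 261 CPM in restricted libraries. Sdha, the flavoprotein that binds succinate, measured 549, 621 and 675 CPM in control and 576, 617 and 873 CPM in restricted libraries. In each of these 3 genes the restricted range overlapped the control range, except for 3 libraries above it, led by Restricted 1 and Restricted 10. Their log2 fold changes were 0.16, 0.12 and 0.12.

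Complex III passes electrons from ubiquinol to cytochrome c, and its 6 genes had a median log2 fold change of 0.099. The catalytic Rieske protein and 2 small subunits had log2 fold changes of 0.16 to 0.26, and the core proteins Uqcrc1 and Uqcrc2 and the cytochrome c1 gene Cyc1 had 0.028, 0.024 and 0.041. Without Restricted 1 the latter 3 were at -0.076, -0.12 and -0.10, and the former stayed above 0.

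Uqcrfs1 measured 139.6, 152 and 175 CPM in control and 155, 170 and 229 CPM in restricted libraries, with means of 154 ± 12.5 and 180 ± 24.7 CPM (SD, n = 10 each). All 10 restricted libraries lay above the control median, and 4 lay above the highest control, Restricted 1 at the top and Restricted 10 (215 CPM) next. The log2 fold change was 0.24 ± 0.076 (SE), with an adjusted p of 0.0398 by edgeR's quasi-likelihood test. It was 0.16 without Restricted 1 (adjusted p of 0.151) and 0.12 in the 14 libraries (adjusted p of 0.447). The call was lost on leaving out 9 of the 20 libraries in turn.

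Uqcrh, the hinge protein that helps cytochrome c1 meet cytochrome c, measured 155, 178 and 221 CPM in control and 175, 194 and 264 CPM in restricted libraries. Restricted 10 and Restricted 1 (262 CPM) were nearly level at the top, and 9 of 10 restricted libraries exceeded the control median. Uqcrh had a log2 fold change of 0.26 ± 0.090 (SE), with an adjusted p of 0.0553 by edgeR, and 0.21 without Restricted 1 (adjusted p of 0.172).

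Uqcrq, a small subunit, measured 127, 155 and 186 CPM in control and 118, 162 and 245 CPM in restricted libraries. Its restricted range enclosed the control range, and the log2 fold change of 0.16 ± 0.12 (SE) had an adjusted p of 0.397 by edgeR. Uqcrc2, a core protein of the matrix side, measured 194, 214 and 236 CPM in control and 169, 201 and 311 CPM in restricted libraries. The restricted median lay below the control median, with 7 of 10 restricted libraries below it and Restricted 1 alone far above.

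Cytochrome c, the mobile carrier encoded by Cycs, had the largest log2 fold change of the 42 genes and the widest error. Cycs measured 49.3, 60.2 and 74.1 CPM in control and 50.6, 60.6 and 119.8 CPM in restricted libraries. Medians were nearly equal, and the 3 libraries above all controls were led by Restricted 1 and Restricted 10 (99.0 CPM). Cycs had a log2 fold change of 0.30 ± 0.15 (SE), with an adjusted p of 0.180 by edgeR, and 0.10 without Restricted 1.

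**Figure D3:**
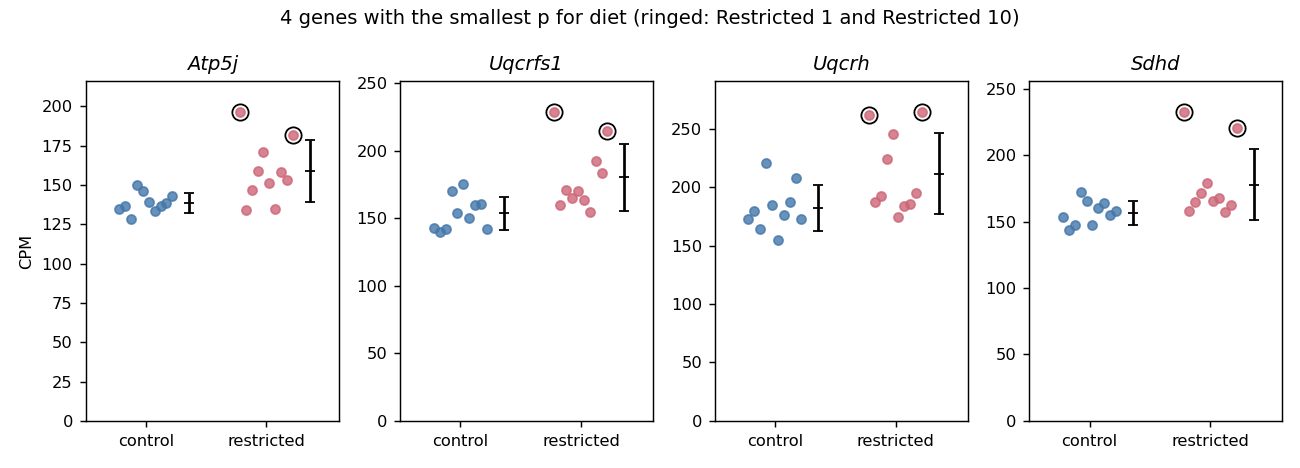
CPM in each library (vertical axis, from 0) for Atp5j, Uqcrfs1, Uqcrh and Sdhd, in the control (blue) and random food restriction (red) groups on the horizontal axis; points are in replicate order and bars give the mean ± SD (n = 10). Restricted 1 and Restricted 10, ringed, are the 2 highest points of each panel, at 196 and 182 CPM for Atp5j, and 3 to 7 restricted libraries lie above the highest control.

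Complex IV reduces oxygen, and its 8 genes had log2 fold changes of 0.12 to 0.21, with a median of 0.19. All 8 stayed above 0 without Restricted 1 (median 0.12) and in the 14 libraries (median 0.086), and none passed in any of these fits. Cox6c, a small membrane subunit, measured 183, 203 and 244 CPM in control and 189, 223 and 296 CPM in restricted libraries. Restricted 10 and Restricted 1 (285 CPM) were highest, and 8 of 10 restricted libraries exceeded the control median. The log2 fold change was 0.21 ± 0.084 (SE) with an adjusted p of 0.0933 by edgeR, and the overlapping gene Vps13b had 28.4% as many counts as Cox6c.

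Cox7b, another small X-linked subunit, measured 93.1, 102 and 119.9 CPM in control and 89.6, 106 and 161 CPM in restricted libraries. Ndufa4, first described with complex I and later as a complex IV subunit, measured 203, 236 and 272 CPM in control and 228, 251 and 326 CPM in restricted libraries. Restricted 1 was highest for both genes and Restricted 5 second, and 7 of 10 restricted libraries exceeded the control median in each. Their log2 fold changes were 0.20 ± 0.095 and 0.18 ± 0.086 (SE), with adjusted p of 0.164 and 0.166 by edgeR.

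Cox5b, a zinc-binding subunit, measured 119, 138 and 159.6 CPM in control and 93.3, 151 and 184 CPM in restricted libraries. Restricted 7 and Restricted 4 (115 CPM) lay below every control and 3 restricted libraries lay above, so that the range was wide on both sides. Cox5b had a log2 fold change of 0.12 ± 0.10 (SE), with an adjusted p of 0.449 by edgeR.

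Complex V makes ATP, and its 8 genes had log2 fold changes of -0.011 to 0.21, with a median of 0.096. Atp5j, which links the catalytic head to the membrane part, measured 128, 138 and 150.3 CPM in control and 134, 156 and 196 CPM in restricted libraries, with means of 139 ± 6.45 and 159 ± 19.7 CPM (SD, n = 10 each). Restricted 1 was highest, Restricted 10 second (182 CPM), and 7 of 10 restricted libraries exceeded every control, the most for any of the 42 genes. The log2 fold change was 0.21 ± 0.066 (SE), with an adjusted p of 0.0371 by edgeR's quasi-likelihood test.

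Without Restricted 1 the log2 fold change of Atp5j was 0.14 (edgeR adjusted p of 0.146), and in the 14 libraries it was 0.13 (adjusted p of 0.330). The call was lost on leaving out 8 of the 20 libraries in turn. Atp5j spans chr16:84827866-84835503 on the minus strand of GRCm38 and shares 579 bases with Gabpa, a gene on the other strand that encodes a DNA-binding subunit of the GABP factor. Gabpa had 24.5% as many counts as Atp5j, and without a stated strand setting reads in the shared bases cannot be told apart. The log2 fold change of Gabpa was 0.043 (edgeR adjusted p of 0.668).

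Atp5a1, of the catalytic head, measured 1002.6, 1050.2 and 1108 CPM in control and 995, 1030.4 and 1549 CPM in restricted libraries. Its restricted median lay below the control median while Restricted 1 and Restricted 10 (1377 CPM) lay far above all controls, and the log2 fold change was 0.12 ± 0.081 (SE, edgeR adjusted p of 0.342).

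Atp5h, the stalk subunit d, measured 141, 161 and 176 CPM in control and 142, 158 and 192 CPM in restricted libraries. Its groups overlapped apart from 4 restricted libraries above the controls, and the log2 fold change was 0.098 ± 0.065 (SE, edgeR adjusted p of 0.347). Atp5g1 measured 34.6, 41.7 and 47.0 CPM in control and 31.4, 37.0 and 52.9 CPM in restricted libraries. It was the only one of the 42 genes with a log2 fold change below 0, at -0.011 ± 0.083 (SE, edgeR adjusted p of 0.951).

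**Figure D4:**
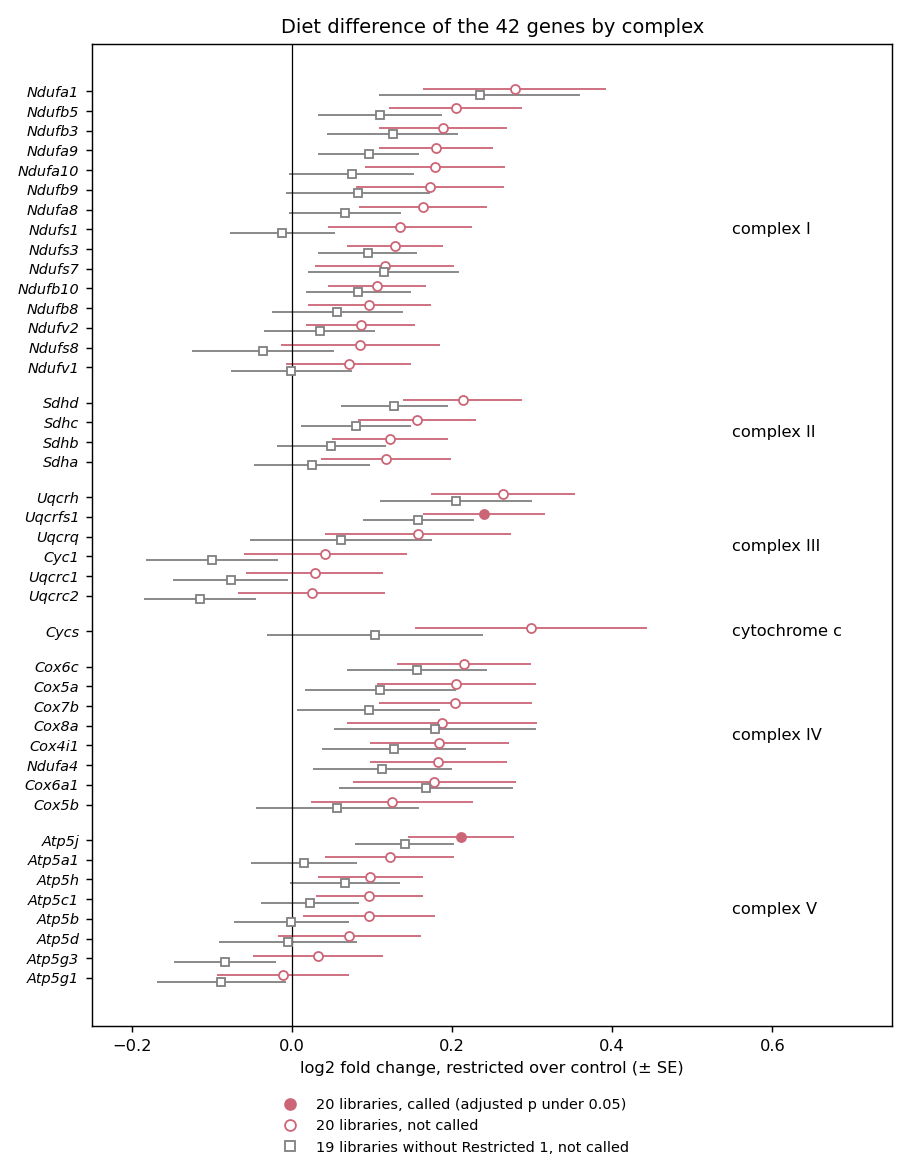
Log2 fold change, restricted over control, with its SE (horizontal axis) for each of the 42 genes (vertical axis) by complex, in all 20 libraries (red circles, filled where the adjusted p is under 0.05) and in 19 libraries without Restricted 1 (grey squares). All but Atp5g1 lie above 0 in 20 libraries and only Atp5j and Uqcrfs1 pass, whereas 32 lie above 0 and none passes without Restricted 1.

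The contamination label was also compared, since it was uneven between the diets. By the label, Yes over No with diet as a term, none of the 42 genes passed an adjusted p of 0.05 (5.04% of all tested genes passed as higher in libraries marked Yes, 0.269% as lower, 5.3% in all), and none had an unadjusted p under 0.05 (13.5% of all tested genes). Log2 fold changes ran from -0.12 to 0.23 with a median of 0.070, and the lowest adjusted p by edgeR was 0.461. For the product of diet and label, none of the 42 genes passed, and no tested gene did (0.0%; 871 genes, or 5.45%, at an unadjusted p under 0.05 by edgeR, and 0.014% of genes passing by DESeq2). No gene of the 42 had an unadjusted p under 0.05 for this product, and without Restricted 1 there were 7 (8.65% of all genes). Within the libraries marked No the median log2 fold change for diet was 0.10 and none of the 42 passed (2.41% of genes). Within those marked Yes it was 0.18, and Cox8a passed (1.4% of genes) with a log2 fold change of 0.40 and an edgeR adjusted p of 0.0309, against -0.013 (adjusted p of 0.982) within those marked No. The product of diet and label for Cox8a had an adjusted p of 0.859 by edgeR.

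Of 36 other structural subunit genes of the same complexes, 35 had a log2 fold change above 0, with a median of 0.16. Of the 36, 6 passed as higher (16.7%, against 6.31% of all genes). They were Ndufb4, Ndufa6 and Ndufa5 of complex I, Uqcrb of complex III, Cox7a2 of complex IV and Atp5j2 of complex V. Ndufb4 rose from 7.98 ± 1.16 to 10.04 ± 1.12 CPM (SD, n = 10 each) and Uqcrb from 71.1 ± 4.91 to 86.5 ± 11.7 CPM, with log2 fold changes of 0.33 and 0.30 and edgeR adjusted p of 0.0283 and 0.0114. Without Restricted 1, Ndufb4 and Ndufa6 still passed (5.56%, near the 4.82% of all genes), and in the 14 libraries none did (2.39% of all genes). Gene length moved with these values. Of the 42 and 36 genes together, the 39 with merged exons under 1756 bases had a median log2 fold change of 0.18. The 39 of 1756 bases or more had 0.12, against 0.077 and 0.0003 for all tested genes of those lengths.

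Of 43 tested factors that assemble the complexes, 8 passed as higher (18.6%, against 6.31% of all genes) and none as lower: Nubpl, Sdhaf4, Sdhaf1, Ndufaf4, Ndufaf2, Lyrm7, Cox19 and Tmem70. Nubpl, which delivers iron-sulfur clusters to complex I, measured 10.7, 12.7 and 13.9 CPM in control and 14.9, 16.3 and 18.7 CPM in restricted libraries. The groups did not overlap. The difference was 0.40 ± 0.070 on the log2 scale (SE), with an edgeR adjusted p of 0.00076.

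Sdhaf4, which helps Sdha join Sdhb, measured 10.4, 13.4 and 16.7 CPM in control and 15.5, 17.8 and 20.8 CPM in restricted libraries, and 8 of 10 restricted libraries exceeded every control. Its log2 fold change was 0.44 ± 0.080 (SE), with an edgeR adjusted p of 0.0010. Nubpl and Sdhaf4 passed on leaving out any 1 library, and Nubpl, Sdhaf4, Sdhaf1 and Ndufaf4 passed without Restricted 1 and in the 14 libraries. The share of factors called higher was 9.30% in each of these 2 fits, against 4.82% and 2.39% of all genes. In both of those fits Acad9, a complex I assembly factor chosen after its values were seen, passed as lower, with log2 fold changes of -0.21 and -0.28. Of all genes, 6.23% and 3.19% passed as lower there.

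**Figure D5:**
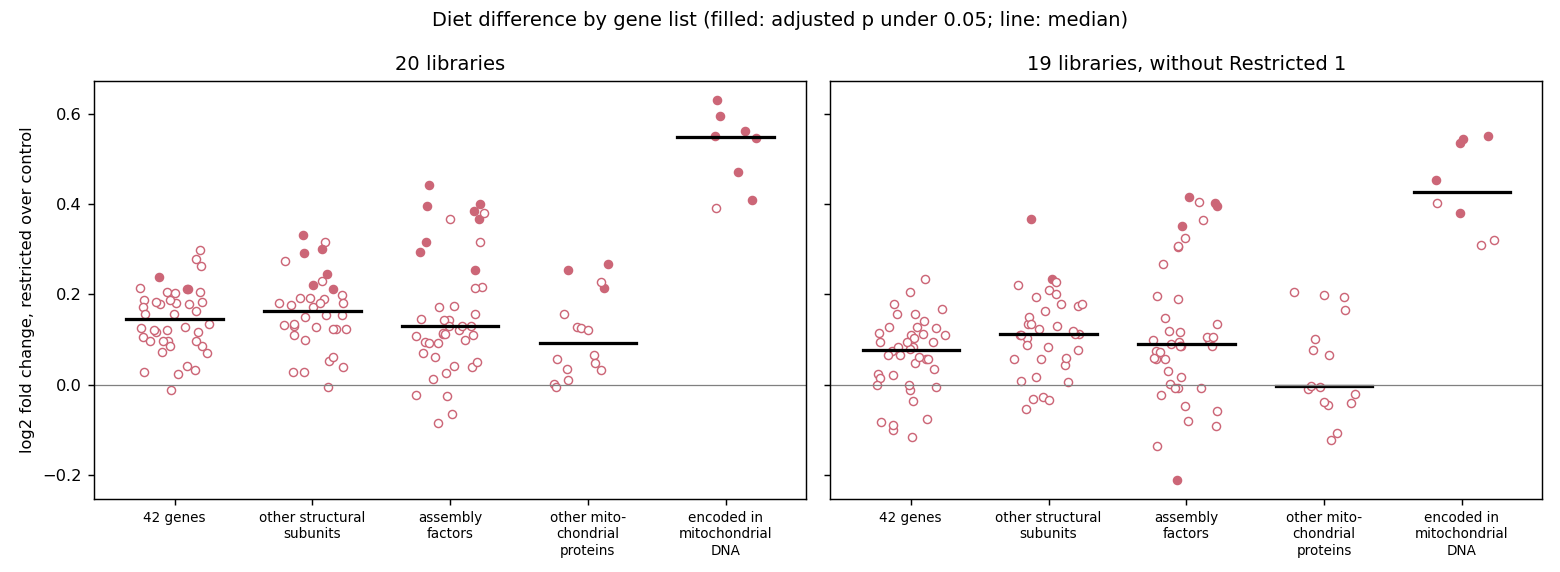
Log2 fold change, restricted over control (vertical axis), for each tested gene of 5 lists (horizontal axis), in 20 libraries (left) and without Restricted 1 (right); filled points have an adjusted p under 0.05 and lines are medians. The median of the 42 genes is 0.15 on the left and 0.077 on the right, and that of genes encoded in mitochondrial DNA is 0.55 and 0.43.

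Of the 13 partner subunits encoded in mitochondrial DNA, 8 passed the filter. All 8 had a log2 fold change above 0, with a median of 0.55, and 7 passed as higher (87.5%, against 6.31% of all genes). The gene mt-Co1, for the catalytic subunit of complex IV, measured 6170.4, 7243 and 9753 CPM in control and 8161, 12074 and 14873 CPM in restricted libraries, with a log2 fold change of 0.63 ± 0.13 (SE) and an edgeR adjusted p of 0.0034. Restricted 4 and Restricted 5 (14811 CPM) were highest, with Restricted 1 close behind at 14274 CPM and Restricted 10 at 13041 CPM. Without Restricted 1, 5 genes passed (62.5%, against 4.82% of all genes), and in the 14 libraries 3 passed (37.5%, against 2.39%). The genes mt-Co2, mt-Co3, mt-Atp6, mt-Atp8 and mt-Nd4l had means of at most 0.113 CPM in control libraries, against 7583 CPM for mt-Co1.

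Isoforms of muscle and brown fat, of testis, and the regulators were read beside these. Cox8b, the complex IV isoform of muscle and brown fat, rose from 9.64 ± 2.19 to 19.8 ± 10.2 CPM (log2 fold change 1.05, edgeR adjusted p of 0.0088), with Restricted 1 and Restricted 10 highest. The value without Restricted 1 was 0.72 on the log2 scale, at an edgeR adjusted p of 0.0645. Cox7a1 and Slc25a4, the other tested genes of that list, had log2 fold changes of 0.35 and 0.040 and did not pass. Cox6a2 was below the filter, with 5.81 CPM in Restricted 1. The testis isoforms Cox7b2, Cox8c, Cyct and Slc25a31 were below the filter, and Cox6b2 was at -0.12 on the log2 scale (edgeR adjusted p of 0.668).

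Of 13 regulators, among them Ppargc1a, Nrf1, Esrra and Tfam, none passed, and their median log2 fold change was 0.043. Of 16 other mitochondrial proteins, with a median of 0.093, Vdac1, Phb and Tomm20 passed as higher (18.75%, against 6.31% of all genes). None passed without Restricted 1 (4.82% of all genes), where the median was -0.0033.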

How the data were processed

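PolyA RNA of 20 eWAT samples was sequenced as 52-base paired ends, per the labels' protocols. Salmon, STAR, bcl2fastq 4.0.3 and the build GRCm38 are listed without role or order per the submitters' processing notes. The authors deposited whole-number counts per gene, unscaled as far as the values show. The counting tool, annotation release and strand setting were not given in the sources used here, so overlapping genes and near-identical copies can share reads. No source says whether libraries came from separate animals, so p-values measure the spread between these libraries, which may be technical.

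Symbols were matched by identifier (55141 of 55401 genes). The lengths of all 42 genes equalled the merged exons of GENCODE vM21. Of the 42, 19 overlap another annotated gene, 13 of them one on the other strand, and in 4 that gene had over 5% as many counts. The test was edgeR's quasi-likelihood test (edgeR 4.0.16, R 4.3.3), two-sided, with TMM factors, filterByExpr at a minimum count of 10 (15986 genes, at least 99.6% of each library's counts), label and diet as terms, and Benjamini-Hochberg adjustment. The SE is the log2 fold change divided by the square root of F. CPM values and marker sums are scaled to the tested-gene total times its TMM factor, and the muscle index uses plain totals with a prior count of 2. The biological coefficient of variation was 0.179, far above counting error at these depths. The fit was tested on simulated data. The least chi-square per degree of freedom between libraries of a diet was 9.93, so none was a repeat sequencing of another library of its diet. This value cannot tell whether libraries came from the same animal.

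Named are the genes called by diet, the 3 with the smallest and the 1 with the largest p in each complex, up to 4 called genes by smallest p of each other list, and all muscle, brown fat and testis isoforms. Further names complete small counts and were chosen after their values were seen. The genes, lists and tests were chosen with earlier results of these data known. Alternatives were DESeq2 1.42.0, limma-voom (limma 3.58.1), other factors and filters, other terms, subsets of libraries and each library left out. Fits without 7 libraries, with replicates 1 to 5 against 6 to 10 as a term, and with replicates 1 to 5 or 6 to 10 alone were added after the data were seen. Figures used Python 3.11.15 with matplotlib 3.10.9.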

Additional observations from a re-analysis of the deposited data

Results flagged for a closer look

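Single libraries stood apart within a diet for 6 of 90 sets of 10 libraries examined (Dixon's gap over range above 0.466), where chance alone flags about 1 in 20. Among the 42 genes this was Uqcrc2, at 310.7 CPM in Restricted 1 against 239.6 in the next restricted library. Among other genes, Sdhaf1 was at 8.94 CPM in Control 4 (next 6.84). Cox6a2 was at 12.1 CPM in Control 3 (next 3.39) and at 5.81 in Restricted 1 (next 0.213). Cox7a1 was at 9.64 CPM in Restricted 1 (next 4.44). Cox6b2 was at 3.73 CPM in Restricted 2 (next 2.54), the library with the highest summed germ cell markers. Control 3 and Restricted 1 are among the 6 libraries with skeletal muscle transcripts.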

How the results depend on the processing

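The count of the 42 genes called higher by diet, 2 in the reported fit, moved most. The share of all tested genes called higher in each fit stands in brackets. The count was 0 without a filter (1.68%), with the replicate block (3.22%) and in libraries marked No alone (0.784%). It was also 0 without the 6 libraries with muscle transcripts (2.39%), without Restricted 1 (4.82%) and by limma-voom (6.37%). With the RNA integrity number as a term (1.26%) and in the same 17 libraries without that term (4.17%) it was again 0. Fits added after the data were seen also gave 0. They were without the 7 libraries of highest muscle index (2.67%) and in replicates 1 to 5 (0.761%) or 6 to 10 (0.412%) alone. The count was 1 in libraries marked Yes alone (0.404%) and with replicates 1 to 5 against 6 to 10 as a term (5.17%). It was 4 at a minimum count of 50 (8.59%) and by DESeq2 (8.03%), with Atp5j, Uqcrfs1, Uqcrh and Sdhd in both. With the muscle index as a term (6.16%) it was 5, these 4 and Ndufb5. Leaving out each library gave 0 to 9. In the same fits, the share of all tested genes called higher ranged from 0.404% to 8.59% outside the fits that left out 1 library. With the RNA integrity number as a term it was 1.26%, against 4.17% in the same 17 libraries without that term. The integrity number averaged 7.41 in control (n = 9) and 7.175 in restricted libraries (n = 8). It was lowest in Restricted 2 (6.5) and missing for Control 7, Restricted 7 and Restricted 10, and its part in the results was not tested further. Counts called lower, by label and for the product of diet and label were 0 in all fits run. The median log2 fold change stayed between 0.077 and 0.17 on leaving out each library and was 0.015 without the 7 libraries.

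Directions of the genes named by rule changed as follows (log2 fold change), and the cause was not tested. Without Restricted 1, Ndufs8 was -0.036, Uqcrc2 -0.12 and Slc25a4 -0.032. Without the 6 libraries, Ndufs8 was -0.098, Sdha -0.020, Uqcrq -0.0097, Uqcrc2 -0.16 and Cox6b2 0.088. Without the 7 libraries, Ndufs8 was -0.14, Sdhb -0.013, Sdha -0.058, Uqcrq -0.075, Uqcrc2 -0.18, Cox5b -0.013, Atp5a1 -0.031, Slc25a4 -0.0064 and Cox6b2 0.12. In libraries marked No, Uqcrq was -0.0091, Uqcrc2 -0.033, Cox5b -0.057, Cox7a1 -0.039 and Slc25a4 -0.050. In those marked Yes, Atp5g1 was 0.028 and Cox6b2 0.14. In replicates 6 to 10, Ndufs8 was -0.044, Uqcrc2 -0.10 and Cox5b -0.029, and in replicates 1 to 5 Atp5g1 was 0.022. By limma-voom, Ndufs8 was -0.033, Uqcrc2 -0.079 and Slc25a4 -0.017. With diet alone as a term Uqcrc2 was -0.0051, with the muscle index Atp5g1 was 0.013, and by DESeq2 Atp5g1 was 0.00085. On leaving out each library, Atp5g1 ranged from -0.088 to 0.030, Ndufs8 from -0.036 to 0.13, Uqcrc2 from -0.12 to 0.088, Slc25a4 from -0.032 to 0.082 and Cox6b2 from -0.29 to 0.010. Of all 42 genes, 9 had the other sign without Restricted 1, 11 without the 6 libraries, 17 without the 7 and 8 in libraries marked No. Among those named outside the rule, without Restricted 1 Uqcrc1 was -0.076, Cyc1 -0.10, Ndufs1 -0.012, Ndufv1 -0.00083 and Atp5b -0.00082, and without the 6 libraries they were -0.15, -0.16, -0.028, -0.053 and -0.041. In libraries marked No, Uqcrc1 was -0.12, Cyc1 -0.10 and Cox8a -0.013.

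Replicate numbers are shared between the diets, and the labels do not say whether they pair the libraries. Same-numbered libraries correlated at -0.0895 to 0.134, with 2 of 10 over 0.1 and 1 of 10 best with its own number. Such low values show no pairing but cannot exclude one in the design. The replicate block called 0 of the 42 genes and 8.68% of all genes. With a biological coefficient of variation of 0.179, the spread between libraries limited precision more than depth did.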
